A study of Mus musculus with 16 samples.

Results

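The miR-378 family was followed through the cortical small RNA profile of tauopathy mice. Its 5 mature rows, mmu-miR-378a-3p, mmu-miR-378a-5p, mmu-miR-378b, mmu-miR-378c and mmu-miR-378d, were taken by exact name out of 18488 non-coding RNA rows, of which 1969 were miRNA rows. The members were selected on measured values as well as on name, because their levels by genotype and by the number in the sample titles were already known. Those same measures are therefore given here as a description, and nothing is supported with them. The 4 precursor rows of the family, mmu-mir-378a, mmu-mir-378b, mmu-mir-378c and mmu-mir-378d, were read alongside.

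The tissue was frozen prefrontal cortex from PBS-perfused mice, about 10 mg per animal, taken at a single age of about 9.6 months. The 8 PS19 mice were heterozygous (PS19+/-) for a transgene that expresses human tau with the P301S mutation from the mouse prion promoter, on a B6;C3 hybrid background. The 8 wild-type (WT) mice were littermates from the same internal breeding and carried no transgene. The study describes males and females in equal numbers per group, but the sex of each library is not analysed here. The transgene itself is not among the small RNA rows, so the genotype labels were not checked against it. The titles number the libraries 1 to 8 within each genotype, and what the number stands for is not stated. Each library also carries a code, which starts with G in all 8 PS19 libraries and in WT replicates 2 and 4, with F in WT replicates 1, 5, 6 and 7, and with A in WT replicates 3 and 8. Genotype and this code letter overlap in large part, and their shares in a difference cannot be fully told apart.

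miR-378a is transcribed from within Ppargc1b, the gene of the coactivator PGC-1β, which drives mitochondrial biogenesis and oxidative metabolism. Both arms of its hairpin are known as regulators of lipid and energy metabolism in liver, fat and muscle, where oxidative tissues hold high levels. A mature miRNA recognises its targets mainly through its seed, bases 2 to 8 from the 5′ end, so members with different seeds can address different transcripts. In the annotation used here (GENCODE, GRCm38), Mir378a lies in an intron of Ppargc1b on the same strand. Mir378b lies in an intron of Msi2, an RNA-binding protein gene, at chr11:88352773-88352864 on the plus strand, opposite to its host. Mir378c lies in an intron of Samd4, which encodes another RNA-binding protein, at chr14:46954830-46954928 on the minus strand and again opposite to its host. Mir378d, at chr10:126710282-126710391 on the minus strand, is intergenic, with Atp23 as the nearest coding gene at a distance of 158.0 kb.

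The mature sequences of 3 of the 5 members were found by name among the 1679 mature entries of RefSeq (GRCm38.p6). They are shown because these 3 rows differ in seed while sharing most of their remaining bases, which bears on how their counts can be read. Capitals mark the seed.
mmu-miR-378b: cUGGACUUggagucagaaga
mmu-miR-378c: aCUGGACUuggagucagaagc
mmu-miR-378d: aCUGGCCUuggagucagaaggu
mmu-miR-378b is 20 bases long and lies at chr11:88352839-88352858 (plus strand), mmu-miR-378c is 21 bases long at chr14:46954905-46954925 (minus strand), and mmu-miR-378d is 22 bases long at chr10:126710355-126710376 (minus strand). Base 1 of mmu-miR-378b aligned with base 2 of mmu-miR-378c, and the pair shared a run of 19 bases, so their seeds differ by a shift of 1 base. With positions counted from the 5′ end of mmu-miR-378c, the substitutions from it to mmu-miR-378d were A6C, inside the seed, and C21G. The only substitution to mmu-miR-378b over the aligned bases was C21A, outside the seed. mmu-miR-378d shared a run of 14 bases with each of the others. How reads that match several of these rows were assigned is not given in the sources used here, so the counts of all 5 mature rows, and the proportions between them, are uncertain to that extent. The sequence of mmu-miR-378a-3p was not compared with these 3. No member had values identical to those of another row.

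Values are normalized counts, that is, reads divided by a size factor for each library by the authors. Reads were recovered from them and came to 13187096 to 23058568 in all per library, and 1 read was worth 0.595 to 1.46 normalized counts. The libraries stood apart in their miRNA content by title number. Libraries 1 to 4 of both genotypes held 29.3% ± 3.86 (SD, n = 8) of their signal in miRNA rows, and libraries 5 to 8 held 22.4% ± 5.10 (SD, n = 8), with overlapping ranges of 23.0% to 32.6% and 15.0% to 31.6%. Total reads were close between these sets, while 1 read was worth 1.14 ± 0.226 normalized counts in numbers 1 to 4 and 0.849 ± 0.150 in numbers 5 to 8 (SD, n = 8 each). In bulk tissue, fewer cells of a type and less RNA per cell cannot be told apart.

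The family was dominated by the 3p arm of miR-378a, which made up 95.3% ± 0.471 (SD, n = 16) of the 5 mature rows, with a range of 94.4% to 96.0%. The part of reads shared between rows in this share, and in the proportions given further on, was not tested. mmu-miR-378a-3p ranked 50th by mean level among 1241 mature miRNA rows with any signal, above 96.0% of them. The order of levels, in normalized counts not divided by length, was mmu-miR-378a-3p, mmu-miR-378c, mmu-miR-378d, mmu-miR-378b and mmu-miR-378a-5p, and each step held in 16 of 16 libraries. The median ratio of each row to the next was 26.6, 5.80, 1.62 and 8.25. The smallest step, from mmu-miR-378d to mmu-miR-378b, was thus also found in every library.

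mmu-miR-378a-3p, the abundant arm, stood in the PS19 mice at 3967, 6869 and 16489 normalized counts (lowest, median and highest of 8 libraries), with a mean of 9025 ± 4794 (SD). In WT mice it stood at 3844, 8173 and 19417, with a mean of 9161 ± 5158 (SD, n = 8). The ranges overlapped almost completely, and the highest of the 16 libraries was 5.05 times the lowest. These values rest on 4880 to 15155 reads per library.

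The spread followed the title number. At number 1 the value was 16489 in PS19 and 19417 in WT, at number 2 it was 7737 and 13149, at number 3 it was 15881 and 10257, and at number 4 it was 10391 and 8941. At number 5 the value was 5881 in PS19 and 7405 in WT, at number 6 it was 5857 and 4883, at number 7 it was 6001 and 3844, and at number 8 it was 3967 and 5390. All 8 libraries numbered 1 to 4 lay above all 8 libraries numbered 5 to 8, with means of 12783 ± 4137 and 5403 ± 1169 (SD, n = 8 each), a ratio of 2.37. This division of the numbers was chosen after the values were seen. In recovered reads, before the size factors, the sets overlapped, with 7147 in PS19 replicate 2 and 10087 in PS19 replicate 7. It held in each genotype, with PS19 means of 12625 ± 4259 and 5426 ± 975 and WT means of 12941 ± 4662 and 5380 ± 1495 (SD, n = 4 each).

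**Figure D1:**
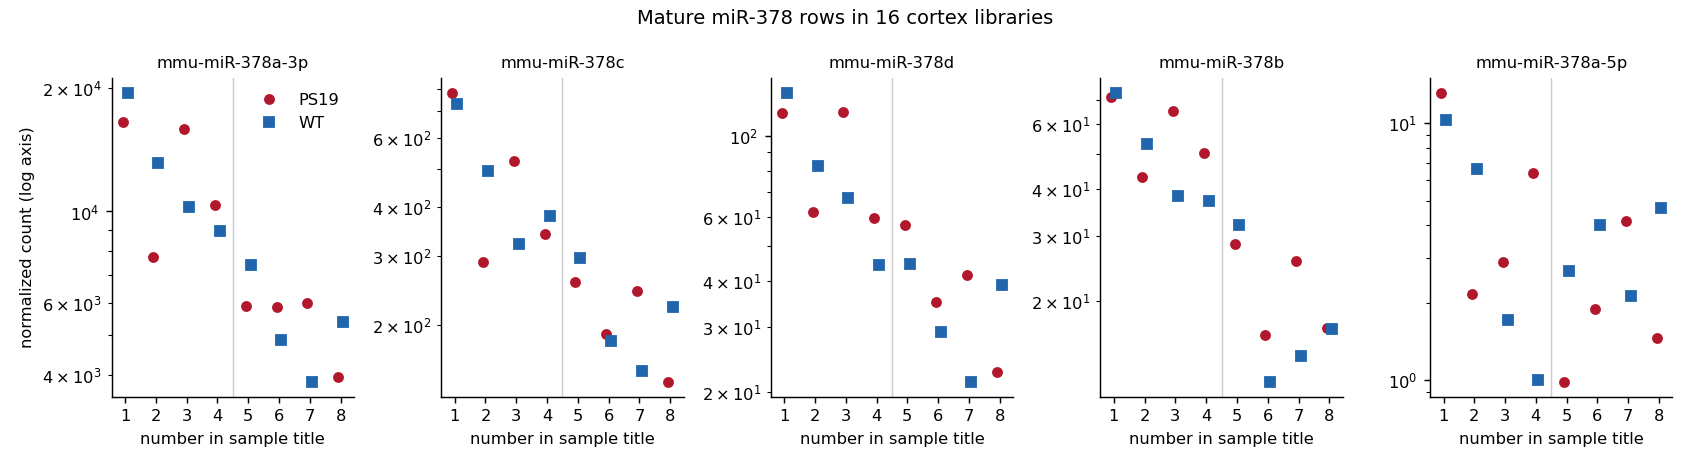
Normalized count (log axis, a separate range in each panel) of each mature miR-378 row in the 16 libraries against the number in the sample title, with PS19 as circles and WT as squares and a grey line between numbers 4 and 5. For mmu-miR-378a-3p the lowest library left of the line is 7737 and the highest right of it is 7405, while the genotypes are interleaved in every panel.

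mmu-miR-378c was the second most abundant member, ranked 168th among mature rows. It stood at 143.4, 274.3 and 780.1 (lowest, median and highest) in PS19 mice, with a mean of 346.7 ± 209.4 normalized counts (SD, n = 8). In WT mice it stood at 152.8, 309.6 and 732.9, with a mean of 347.95 ± 190.7 (SD, n = 8). The genotype means were nearly equal and the ranges overlapped. By title number the means were 483.1 ± 187.6 for 1 to 4 and 211.5 ± 53.6 for 5 to 8 (SD, n = 8 each), and the sets met narrowly, since the lowest of the first was 290.1 and the highest of the second 296.8. Each library held 183 to 572 reads of it.

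mmu-miR-378d, the member whose seed carries the A6C substitution, stood at 22.7, 58.4 and 115.7 in PS19 mice, with a mean of 63.6 ± 34.6 normalized counts (SD, n = 8). In WT mice it stood at 21.2, 44.4 and 130.7, with a mean of 57.4 ± 35.7 (SD, n = 8). The genotypes overlapped over nearly their whole ranges. Numbers 1 to 4 averaged 84.7 ± 31.8 and numbers 5 to 8 averaged 36.3 ± 12.0 (SD, n = 8 each), with overlap between 44.2, the lowest of the first set, and 57.0, the highest of the second. Its counts came from 29 to 102 reads per library.

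mmu-miR-378b, whose seed is shifted by 1 base, stood at 16.1, 35.9 and 71.3 in PS19 mice, with a mean of 39.6 ± 21.3 normalized counts (SD, n = 8). In WT mice it stood at 12.0, 34.6 and 73.0, with a mean of 34.6 ± 21.0 (SD, n = 8). The genotypes again overlapped. By title number its sets did not overlap, with 54.0 ± 14.3 for 1 to 4 (lowest 37.2) and 20.3 ± 7.39 for 5 to 8 (highest 32.1), a ratio of 2.66 on 12 to 57 reads per library.

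mmu-miR-378a-5p, the other arm of the miR-378a hairpin, was near the limit of this depth, with 1 to 9 reads per library and 64 in all. It stood at 0.983, 2.53 and 13.1 normalized counts in PS19 mice (mean 4.13 ± 4.02, SD, n = 8) and at 1.01, 3.34 and 10.3 in WT mice (mean 4.14 ± 3.07, SD, n = 8). Its overall mean of 4.13 was under the filter of 5, so it was not among the rows fitted, and 4 of the 5 members were.

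The genotype comparison, which asks how the cortex of PS19 mice differs from that of WT littermates, called 0 of 6024 rows with limma on log2(normalized count + 1) after Benjamini-Hochberg adjustment, that is, 0% of the background, and 0 of the 4 members. At an unadjusted p under 0.05 it called 241 rows, 4.0% of the background, and 0 of the 4 members. edgeR on the recovered reads called 0 rows (0%). DESeq2 called 15 of the 6024 rows given to it (0.249%), and none of these was a miRNA row. It gave no adjusted p to the precursor rows mmu-mir-378b and mmu-mir-378c, so rows of that kind could not be called. The log2 difference of PS19 minus WT was -0.0029 ± 0.34 (SE) for mmu-miR-378a-3p, -0.03 ± 0.34 for mmu-miR-378c, 0.17 ± 0.36 for mmu-miR-378d and 0.24 ± 0.38 for mmu-miR-378b, each with an adjusted p of 0.9998. The exact two-sided permutation p over the 16 libraries was 0.994, 0.942, 0.669 and 0.585 in that order, and 0.844 for mmu-miR-378a-5p at a log2 difference of -0.09. Among the 748 miRNA rows, the absolute difference was smaller than that of mmu-miR-378a-3p in 0.802% and smaller than that of mmu-miR-378b in 53.9%. With standard errors of this size, a log2 difference of 0.5 in either direction would lie within 2 SE of 0 for each of the 4 members. With the title number as a linear term beside genotype the SEs were 0.18, 0.20, 0.22 and 0.22 for mmu-miR-378a-3p, mmu-miR-378c, mmu-miR-378d and mmu-miR-378b, so that 0.5 would lie beyond 2 SE. No pair of libraries within a genotype agreed within sampling noise.

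The code letter was also fitted beside genotype, without the title number. The differences were then -0.43 ± 0.54 (SE) for mmu-miR-378a-3p, -0.51 ± 0.56 for mmu-miR-378c, -0.11 ± 0.60 for mmu-miR-378d and -0.35 ± 0.62 for mmu-miR-378b. Each was smaller in size than its SE, so the changed sign of the last 2 is not read as a turn in direction. None of the members was called there either. With miRNA rows scaled to their total they were 0.05, 0.03, 0.23 and 0.29, so the sign of the differences near 0 depended on the scale.

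The title number, fitted as a slope beside genotype, moved all 4 fitted members in one direction. The log2 slope per unit of the number was -0.28 ± 0.04 (SE) for mmu-miR-378a-3p, -0.28 ± 0.04 for mmu-miR-378c, -0.29 ± 0.05 for mmu-miR-378d and -0.32 ± 0.05 for mmu-miR-378b. All 4 were called lower at higher numbers, where 13.1% of all rows and 44.9% of miRNA rows were called lower as well. The members are therefore read against a background in which many miRNAs moved the same way. That background itself changed with single libraries: of 336 miRNA rows called lower, the count became 198 without PS19 replicate 8, 222 without PS19 replicate 1, 219 without WT replicate 1, 219 without WT replicate 7 and 457 without WT replicate 8. The median slope was 0.02 over all tested rows and -0.16 over the miRNA rows. A steeper downward slope than that of the member was found in 53 miRNA rows for mmu-miR-378a-3p (7.09%), 56 for mmu-miR-378c (7.49%), 44 for mmu-miR-378d (5.88%) and 29 for mmu-miR-378b (3.88%). Numbers 1 to 4 lay wholly above 5 to 8 in 2 of the 4 fitted members, mmu-miR-378a-3p and mmu-miR-378b, in 18 of the 748 miRNA rows (2.41%) and in 37 of all 6024 rows (0.614%). Nothing is read from this, since both the members and the division were chosen with these values known.

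**Figure D2:**
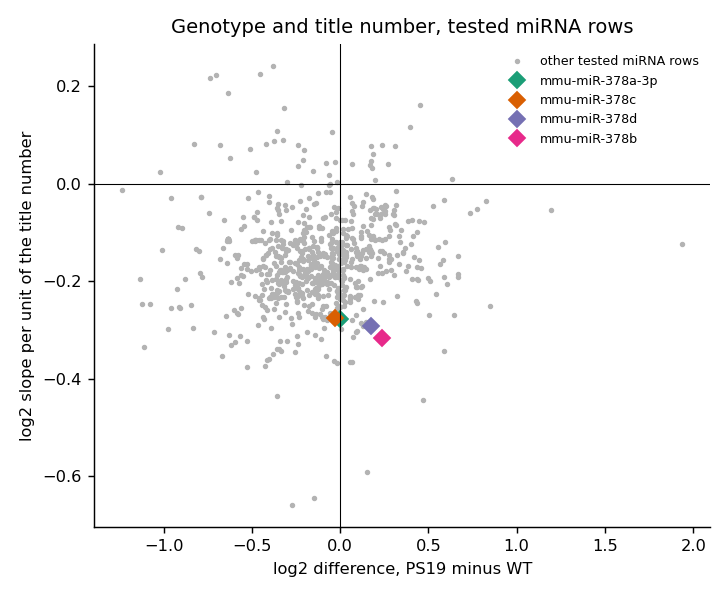
Each point is 1 of the 748 tested miRNA rows, with its log2 difference of PS19 minus WT on the horizontal axis and its log2 slope per unit of the title number on the vertical axis, and the 4 fitted miR-378 members as diamonds. The members lie between -0.03 and 0.24 on the first axis and between -0.32 and -0.28 on the second, below the miRNA median of -0.16.

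The slopes were also read in each genotype taken alone. They come from the libraries with which the members were chosen, so they are a description and no separate support. In PS19 libraries they were -0.25, -0.27, -0.29 and -0.29 for mmu-miR-378a-3p, mmu-miR-378c, mmu-miR-378d and mmu-miR-378b, in a fit that called all 4 lower, beside 13.1% of miRNA rows and 2.89% of all rows. In WT libraries they were -0.30, -0.28, -0.30 and -0.34, in a fit that also called all 4 lower, beside 11.1% of miRNA rows and 3.7% of all rows. The interaction of genotype and number gave adjusted p-values of 0.989 to 0.998 for the members (limma), and 0 of 6024 rows were called, with 282 rows at an unadjusted p under 0.05.

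The size of the slopes depended on the scale. With the miRNA rows scaled to their own total, the slopes shrank to -0.09 ± 0.03 (SE) for mmu-miR-378a-3p, -0.09 ± 0.04 for mmu-miR-378c, -0.11 ± 0.04 for mmu-miR-378d and -0.14 ± 0.04 for mmu-miR-378b, against a miRNA median of 0.01. On that scale mmu-miR-378b alone was called, with an adjusted p of 0.0474 (limma), beside 1.87% of miRNA rows called lower. The adjusted p was 0.0651 for mmu-miR-378a-3p, 0.0817 for mmu-miR-378d and 0.137 for mmu-miR-378c. With each library scaled to the total of all its rows, the slopes were -0.17, -0.17, -0.19 and -0.21 in the same order, all 4 called, beside 13% of miRNA rows called lower. Every setting used the libraries with which the members were chosen, and the 4 slopes lay below 0 in each.

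As a share of the miRNA signal, mmu-miR-378a-3p came to 0.195% ± 0.0342 in PS19 and 0.193% ± 0.0582 in WT mice (SD, n = 8 each). Numbers 1 to 4 gave 0.218% ± 0.0501 with a range of 0.160% to 0.285%, and numbers 5 to 8 gave 0.170% ± 0.0275 with a range of 0.117% to 0.218% (SD, n = 8 each). The sets that were apart on the deposited scale thus overlapped within the miRNA rows.

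**Figure D3:**
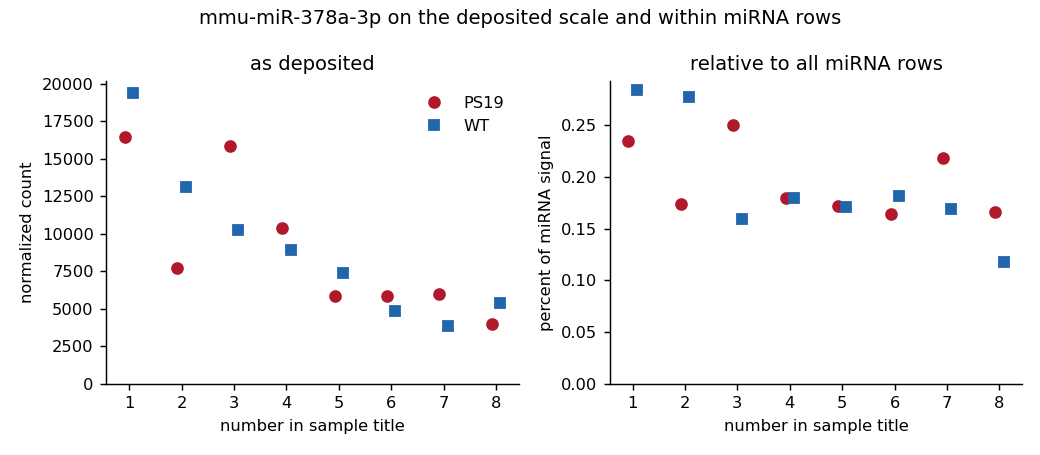
mmu-miR-378a-3p in the 16 libraries against the number in the sample title, as normalized count on the left and as percent of the summed miRNA signal of the library on the right, both from 0, with PS19 as circles and WT as squares. Numbers 1 to 4 and 5 to 8 are apart on the left (lowest 7737 against highest 7405) and overlap on the right (0.160% to 0.285% against 0.117% to 0.218%).

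The proportions of mmu-miR-378c, mmu-miR-378d and mmu-miR-378b to mmu-miR-378a-3p varied less than their levels. mmu-miR-378c came to 3.82% ± 0.445 of mmu-miR-378a-3p (SD, n = 16), with a range of 3.14% to 4.73%, while its own level ranged 5.44-fold. It was 3.80% ± 0.556 in PS19 and 3.85% ± 0.338 in WT mice (SD, n = 8 each), and 3.75% and 3.90% in numbers 1 to 4 and 5 to 8. mmu-miR-378d came to 0.660% ± 0.113 (SD, n = 16), with 0.704% ± 0.134 in PS19 and 0.616% ± 0.0727 in WT mice. mmu-miR-378b came to 0.402% ± 0.0785 (SD, n = 16), with 0.437% ± 0.0815 in PS19 and 0.366% ± 0.0611 in WT mice. In both of the latter the genotype ranges overlapped. Between libraries of the same title number, mmu-miR-378b was the higher percentage in PS19 at every number. mmu-miR-378d was so except at number 8, with 0.572% in PS19 and 0.727% in WT. The number was not taken as a pairing, and this was not tested. mmu-miR-378a-5p came to 0.0459% ± 0.0250 (SD, n = 16), so the 5p arm was the rare product of its hairpin in every library.

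The spread of these percentages over libraries was set beside the spread that counting alone gives. The coefficient of variation was 11.6% for mmu-miR-378c against 5.92% from counting, 17.2% against 14.2% for mmu-miR-378d, 19.6% against 18.6% for mmu-miR-378b and 54.5% against 62.8% for mmu-miR-378a-5p. The counting values treat reads as independent molecules, which PCR-amplified reads are not. They also average the reciprocal of the reads of each library, so libraries with few reads raise them. This weighs most on mmu-miR-378a-5p, with 1 to 9 reads, whose spread is therefore not read as lying below that of counting.

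**Figure D4:**
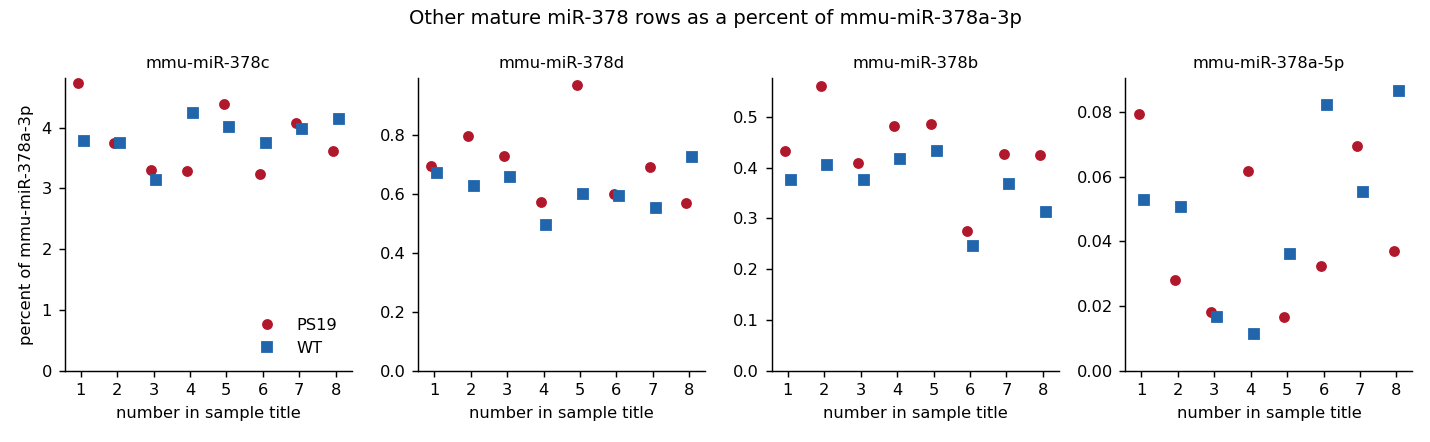
Each of the other mature miR-378 rows as a percent of mmu-miR-378a-3p in the same library, on axes from 0, against the number in the sample title, with PS19 as circles and WT as squares. mmu-miR-378c stays between 3.14% and 4.73% over libraries in which mmu-miR-378a-3p itself ranges 5.05-fold.

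The precursor rows, which count reads on the hairpin, were led by mmu-mir-378a at 1337 ± 658 normalized counts in PS19 and 1359 ± 720 in WT mice (SD, n = 8 each), a log2 difference of -0.01 ± 0.32 (SE). It came to 15.1% ± 1.37 of mmu-miR-378a-3p (SD, n = 16), with a range of 12.3% to 17.6%, and its slope by title number was -0.25 ± 0.04, also called lower. With miRNA rows scaled to their total that slope was -0.07 ± 0.04 with an adjusted p of 0.245 (limma), and the call was lost. On the deposited scale it did not overlap by title number, like the 3p arm, with a lowest value of 1241 in numbers 1 to 4 and a highest of 1152 in numbers 5 to 8. mmu-mir-378b stood at 4.37 ± 2.39 in PS19 and 10.2 ± 7.66 in WT mice (SD, n = 8 each), on 0 to 21 reads per library. Its log2 difference was -1.01 ± 0.43 (SE), with an exact two-sided permutation p of 0.0337 and an adjusted p of 0.9998 over all rows (limma), so it was not called. The difference was -0.61 with a pseudocount of 5 and -1.48 with the code letter as a term. The mature mmu-miR-378b row had a difference of 0.24, and of -0.35 with the code letter as a term. mmu-mir-378c stood at 7.83 ± 3.72 and 9.26 ± 6.17 (SD, n = 8 each). mmu-mir-378d, with 0 to 8 reads per library and a mean of 2.60, was under the filter. The slopes of mmu-mir-378b and mmu-mir-378c, -0.14 ± 0.09 and -0.20 ± 0.08, were not called over all libraries. In WT libraries alone the slope of mmu-mir-378b was -0.33 ± 0.08 (adjusted p of 0.0359, limma), and in PS19 libraries alone it was 0.05 ± 0.14, not called. The interaction of genotype and number for this row had an adjusted p of 0.943 (limma).

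Among miRNA rows with a mean of at least 100 (334, counting those of the family), likeness to mmu-miR-378a-3p was read outside the family. The measure was the SD over 16 libraries of the log2 ratio to it. The closest miRNA rows were mmu-miR-127-3p (SD 0.209), its precursor mmu-mir-127 (0.238), mmu-miR-129-5p (0.239), mmu-miR-106b-3p (0.261) and mmu-miR-28a-5p (0.261). The median over the miRNA rows outside the family was 0.523. Among rows of other classes with a mean of at least 5, mmu_circ_0002920 was at 0.232 and mmu_circ_0011526 at 0.265. Such likeness was thus not confined to miRNA rows. Inside the family the same measure was 0.134 for mmu-mir-378a, 0.168 for mmu-miR-378c, 0.226 for mmu-miR-378d, 0.282 for mmu-miR-378b and 0.724 for mmu-miR-378a-5p. The SD of mmu-miR-378a-3p itself on the log2 scale was 0.734. All of these rows share the libraries and their depth, and the measure is a description.

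Other miRNAs known for roles in metabolism were read as a list of 22 names, of which 19 were in the table and 15 passed the filter. By genotype 0 of the 15 were called (0% of the background) and 7 had the higher mean log2 level in PS19. Their median log2 difference was -0.03, against -0.02 over all rows and -0.12 over miRNA rows. By title number 8 of the 15 were called lower and 0 higher, with a median slope of -0.18, beside the 44.9% of miRNA rows called lower. With miRNA rows scaled to their total, the median slope of the list was -0.0007, while those of the 4 miR-378 members lay between -0.14 and -0.09. Single rows of the list ran from -0.19 (mmu-miR-193b-3p, with a mean of 7.82) to 0.15 (mmu-miR-455-3p).

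Among them, mmu-miR-103-3p, a regulator of insulin sensitivity, stood at 4670 ± 2043 normalized counts in PS19 and 6807 ± 3497 in WT mice (SD, n = 8 each), and its close relative mmu-miR-107-3p at 268.8 ± 128.4 and 304.9 ± 126.8. mmu-miR-122-5p, the abundant miRNA of liver, stood at 291.2 ± 173.6 and 252.3 ± 88.0, and mmu-miR-375-3p, known from pancreatic islets, at 1670 ± 784 and 1498 ± 1639. mmu-miR-27a-3p and mmu-miR-27b-3p, which are known to restrain fat cell formation, stood at 1329 ± 819 and 1036 ± 420, and at 12606 ± 5796 and 13944 ± 6453. The genotype ranges were wide in each, and none of these differences was called. mmu-miR-143-3p, a miRNA of smooth muscle, stood at 19485 ± 6867 and 26937 ± 9634, and mmu-miR-370-3p at 7448 ± 3626 and 7032 ± 3316. mmu-miR-455-5p, known from brown fat, stood at 116.4 ± 57.8 and 110.0 ± 42.8, and mmu-miR-34a-5p, a p53 target, at 804.2 ± 592.7 and 611.6 ± 405.9. The only row of the list at an unadjusted p under 0.05 (limma) was mmu-miR-155-5p, a miRNA of activated immune cells. It stood at 82.5 ± 51.6 in PS19 and 44.3 ± 15.8 in WT mice (SD, n = 8 each). Its adjusted p was 0.9998 (limma), so it was not called. At the unadjusted threshold stood 4.0% of all rows and 18 of the 748 miRNA rows.

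Because miR-378 is abundant in muscle, markers of other cell types were read beside it. All 7 neuronal markers were present, led by mmu-miR-128-3p, with a summed level of 304411 to 1047310 in PS19 and 348472 to 971444 in WT mice, and 4 of them were called lower by title number, beside the 44.9% of miRNA rows called lower. Their median slope was -0.18, and 0.01 with miRNA rows scaled to their total. Of 6 muscle markers, 5 were in the table, led by mmu-miR-1a-3p, and they summed to 2260 to 14657 in the PS19 mice and 2869 to 10708 in the WT mice. The muscle sum was 5624 to 14657 in numbers 1 to 4 and 2260 to 10218 in numbers 5 to 8, with 1 of the 4 tested called lower. The 6 blood cell markers, led by mmu-miR-486b-5p, summed to 1288 to 2833 in numbers 1 to 4 and 1459 to 2925 in numbers 5 to 8, with none of the 3 tested called.

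The 4 vessel markers, led by mmu-miR-143-3p, summed to 35090 to 61734 in numbers 1 to 4 and 15249 to 55121 in numbers 5 to 8, with 3 of 4 called lower beside 44.9% of miRNA rows. The 3 liver markers, led by mmu-miR-192-5p, summed to 1101 to 2144 and 508.3 to 1624 in the same sets, with 2 of 3 called lower. The median slopes of these vessel and liver markers were -0.15 and -0.17, and 0.04 and 0.01 with miRNA rows scaled to their total. For the 3 oligodendrocyte markers, led by mmu-miR-219a-2-3p, the sums were 22270 to 52341 and 13367 to 45829, and for the 5 microglial markers, led by mmu-miR-146a-5p, they were 945.2 to 3013 and 432.8 to 2233, with none called among the 2 tested in each list. No marker was at 0 in every library, and none of those that passed the filter was called by genotype. The part of the muscle, vessel and neuronal sums in the miR-378 values was not tested.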

How the data were processed

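Small RNA libraries (Norgen microRNA kit, NEBNext small RNA, Illumina single-end reads) were made from 16 cortices. According to the submitters' processing notes, reads were aligned to mm10 with STAR 2.5.3a within COMPSRA, and DESeq2 1.42.1 was used. The authors deposited normalized counts, a signal of reads divided by size factors. Their 6 columns of comparison statistics were not used.

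Whole reads were recovered from the deposited signal (100% of values, tolerance 0.001 reads). limma 3.58.1 (R 4.3.3) was fitted on log2(value + 1) to the 6024 rows with a mean of at least 5, two-sided, with Benjamini-Hochberg adjustment over all of them at 0.05. edgeR 4.0.16 and DESeq2 1.42.0 (which replaces outlying counts) were run on the recovered reads as alternatives. In simulated data on 6024 rows, changes by a log2 of 0.5, 1 and 2 were sought. For genotype, 1.49%, 26.9% and 86.4% of the changed rows were recovered (6 false calls). For a change spread over title numbers 1 to 8, 0%, 8.96% and 40.9% were recovered (4 false calls). The simulated spread was estimated with genotype and title number as terms, and the genotype simulation held no trend by number. The genotype fit had no number term, so its recovery is overstated for rows that follow the number.

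The members and gene lists were chosen with earlier results of these data known. Named rows were the members, their precursors, metabolic miRNAs with a mean of at least 100, the 5 most alike rows and the largest row of each marker list. mmu-miR-155-5p was named after its value was seen.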

Additional observations from a re-analysis of the deposited data

Results flagged for a closer look

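In 4 of 30 group values of the miR-378 rows, 1 library stood far from the other 7 of its genotype, with a gap, relative to the range of all 8, above Dixon's 95% limit. Chance would give about 1.5 such cases in 30 if the values were independent and normally distributed. These rows and ratios are related, and some rest on few reads, so no excess is read from the count. mmu-miR-378a-5p was 13.1 normalized counts in PS19 replicate 1 against 6.40 in the next library, a gap of 0.553 of the range, on 9 reads. The precursor mmu-mir-378b was 26.9 in WT replicate 1 against 14.3 in the next, a gap of 0.529. The precursor mmu-mir-378d was 11.6 in PS19 replicate 3 against 4.37 in the next, a gap of 0.623. mmu-miR-378c was 3.14% of mmu-miR-378a-3p in WT replicate 3 against 3.75% in the next lowest, a gap of 0.553.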

How the results depend on the processing

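The genotype comparison called 0 of the 4 miR-378 members under every alternative run, and 0 rows of all kinds except with DESeq2, which called 15. Leaving out each library in turn, the genotype calls stayed at 0 and the log2 difference ran from -0.16 to 0.18 for mmu-miR-378a-3p, -0.22 to 0.15 for mmu-miR-378c, 0.0041 to 0.37 for mmu-miR-378d and 0.06 to 0.42 for mmu-miR-378b. The replicate block on the title number called 0 members and 0 rows (419 at an unadjusted p under 0.05), with mmu-miR-378a-3p at -0.0029 ± 0.17 (SE). Same-numbered libraries deviated together with correlations of 0.0446 to 0.456, over 0.1 in 6 of 8 pairs, and 4 of 16 libraries correlated best with their own number, so the number was not taken as a pairing. By title number, 1105 rows were called (315 higher, 790 lower). This became 2181 (1991 higher, 190 lower) when scaled to library totals, 678 (258 higher, 420 lower) with miRNA rows scaled to their total, 207 in PS19 alone and 316 in WT alone. Dropping single libraries gave between 641 (PS19 replicate 8 dropped) and 1477 (WT replicate 8 dropped), with 648 when WT replicate 1 was dropped. The cause was not tested. Of the 4 members called lower by number, 1 remained called with miRNA rows scaled to their total, and 4 did whichever library was left out. The exact permutation test over every row was not run. Depth limits mmu-miR-378a-5p, with 1 to 9 reads per library, and the precursor mmu-mir-378d, with 0 to 8.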
